A study of Mus musculus with 12 samples.

Results

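The solute carrier genes described here are the 152 genes whose symbol is Slc followed by a digit and whose mean level was 3 CPM (read counts scaled to a common library total) or more over 12 RNA sequencing libraries, out of 24421 gene symbols measured. The rule left out Slc7a11, Slc7a2, Slc2a1, Slc16a3, Slc3a2, Slc7a5, Slc7a1 and Slc1a5, of which 7 passed 3 CPM. The table held 373 Slc symbols; a further 213 lay under 3 CPM, 63 of them with 0 reads in every library. The members were thus chosen by their measured mean level, pooled over all groups, and their presence is no finding. Just inside the limit were Slc22a15 at 3.18, Slc2a8 at 3.42 and Slc1a4 at 3.69 CPM, and just outside were Slc25a43 at 2.96, Slc9a9 at 2.45 and Slc2a4rg-ps at 2.28 CPM. Of the 152 members 149 were carriers of 38 SLC families, and 3 share only the prefix: Slc7a6os, Slc9a3r1 (a scaffold protein, NHERF1) and Slc4a1ap. All 152 passed the filter for testing.

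The cells were RAW 264.7, a macrophage line from BALB/c mice, either wild type (WT) or Parp14 -/- (knockout, KO). PARP14 is an ADP-ribosyltransferase of macrophages and other immune cells. Lipopolysaccharide (LPS) is a component of the outer membrane of Gram-negative bacteria that macrophages sense through TLR4, and Jak kinases carry signals from interferon and cytokine receptors. The 6 groups of 2 libraries each were KO cells with LPS for 2 h (KO LPS), untreated KO cells (KO UT), WT cells with LPS plus a Jak inhibitor for 2 h (WT LPS + JAKi), WT cells with LPS for 2 h (WT LPS), WT cells with the inhibitor alone (WT JAKi) and untreated WT cells (WT UT). In the libraries analysed here only WT cells received the inhibitor; which inhibitor, at what dose, and how many KO clones there were is not given in the sources used. BALB/c mice are known to carry a loss-of-function allele of Slc11a1, so its transcript in this line does not stand for a working carrier.

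Solute carriers move ions, metals, sugars, amino acids, nucleotides and lipids across the plasma membrane and the membranes of organelles. Many work as exchangers or are coupled to sodium or protons, and the SLC25 family lies mainly in the inner mitochondrial membrane. In macrophages, carriers of the phagosome and lysosome, such as SLC11A1 for divalent metals and SLC15A3 and SLC15A4 for peptides and histidine, are known for roles in host defence.

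Gene reads ranged from 35.9 M to 45.7 M per library. Macrophage markers were present (9 of 9 over 1 CPM), whereas the lists for lymphocytes, for neutrophils and for stromal, epithelial and endothelial cells each summed to under 1 normalised CPM in every library. Parp14 averaged 41.8 ± 4.7 normalised CPM in KO LPS and 10.04 ± 1.39 in KO UT libraries, against 405.9 ± 84.0 in WT LPS and 79.8 ± 15.6 in WT UT libraries (SD, n = 2 each), so the label and the transcript level went the same way, although reads remained in KO cells. Whether the 2 libraries of a group came from separate cultures is not stated, so p-values cover the spread between libraries only, and that spread may be technical. In these bulk samples, fewer cells of a kind and less RNA per cell cannot be told apart. Levels are normalised CPM, that is CPM over gene reads divided by a median-of-ratios factor; changes are differences in log2(normalised CPM + 1) with their standard error (SE), which understate the change of low genes. A gene was called at an adjusted p under 0.05 (limma, Benjamini-Hochberg over the 10876 genes tested).

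Promoters of 4 carriers that rose after LPS are shown because they are among the members with the largest increases and differ in the motifs they hold. The sequences are RefSeq's for GRCm38.p6, 250 bases before to 50 after the annotated start, and capitals mark matches to the motifs searched.

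Slc31a2, chr4:62286179-62286478, plus strand: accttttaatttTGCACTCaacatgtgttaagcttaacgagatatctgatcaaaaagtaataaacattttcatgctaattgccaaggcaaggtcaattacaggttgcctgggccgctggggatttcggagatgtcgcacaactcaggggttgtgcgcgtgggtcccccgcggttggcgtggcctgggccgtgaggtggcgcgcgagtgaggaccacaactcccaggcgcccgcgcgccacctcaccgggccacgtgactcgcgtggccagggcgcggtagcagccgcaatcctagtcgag

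Slc4a7, chr14:14718534-14718833, plus strand: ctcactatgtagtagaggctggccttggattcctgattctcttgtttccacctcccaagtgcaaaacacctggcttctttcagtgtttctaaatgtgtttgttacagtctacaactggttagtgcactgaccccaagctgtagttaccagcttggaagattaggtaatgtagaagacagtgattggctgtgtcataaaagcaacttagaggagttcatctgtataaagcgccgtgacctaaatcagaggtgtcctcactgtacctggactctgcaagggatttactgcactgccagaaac

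Slc20a1, chr2:129198523-129198822, plus strand: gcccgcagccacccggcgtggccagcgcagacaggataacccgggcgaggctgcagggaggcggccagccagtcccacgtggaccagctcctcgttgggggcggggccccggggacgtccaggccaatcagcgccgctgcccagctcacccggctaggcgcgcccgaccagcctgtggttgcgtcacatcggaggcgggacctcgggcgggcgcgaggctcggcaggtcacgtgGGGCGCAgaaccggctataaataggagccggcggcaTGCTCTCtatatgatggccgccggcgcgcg

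Slc39a1, chr3:90247942-90248241, plus strand: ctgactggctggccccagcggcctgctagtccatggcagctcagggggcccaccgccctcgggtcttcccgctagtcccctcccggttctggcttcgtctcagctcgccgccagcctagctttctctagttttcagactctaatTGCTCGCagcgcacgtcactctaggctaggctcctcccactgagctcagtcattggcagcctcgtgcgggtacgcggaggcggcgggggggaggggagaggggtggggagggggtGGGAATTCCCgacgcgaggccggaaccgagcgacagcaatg

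The motifs searched, on both strands, were the NF-kappaB site, the AP-1 motif TGANTCA, the core of the interferon-stimulated response element and the metal response core TGCNCNC. Of the 4 promoters printed, Slc39a1 held the NF-kappaB site, as GGGAATTCCC, which begins at base 10 counted from the start as base 1 and reads the same on both strands. Slc31a2 held the metal response core at base -238, Slc20a1 at base -16 on the minus strand and at base 21, and Slc39a1 at base -106; Slc4a7 held none of the motifs in this window. The starts of Slc31a2 and Slc4a7 used by RefSeq lie inside the extent of these genes in GENCODE M21, and Slc20a1 has 2 entries of which 1 is shown. Of the 152 members 118 had a promoter entry. The NF-kappaB site was in 5 of these 118 (4.24%) and in 1.2% of all 32851 promoters, TGANTCA in 8 (6.78%) and in 7.81% of all, the interferon core in 3 (2.54%) and in 3.44% of all, and TGCNCNC in 75 (63.56%) and in 51.03% of all. The 5 members with the NF-kappaB site comprised 2 of 31 that rose and 3 of 59 that fell after LPS in WT cells, and 0 of 28 not called. A match is a description of letters, not of a factor's binding.

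The members spanned a wide range of levels. Per kilobase of exon, the mean level over the 12 libraries was 0.359 normalised CPM for Slc22a15, 8.27 at the median member and 677 for Slc25a5, the adenine nucleotide translocator 2, a 1890-fold span. After Slc25a5, the most abundant per kilobase were Slc39a1 (a zinc importer) at 127, Slc16a1 (a monocarboxylate carrier) at 94.6, Slc6a12 (a betaine and GABA carrier) at 94.0 and Slc25a3 (the mitochondrial phosphate carrier) at 82.1. Genes of the SLC25 family have processed copies in the genome, so the levels of Slc25a5 and Slc25a3 are uncertain. Among the members, 8 share over 20% of their exon bases with another annotated gene, and whether reads were counted by strand is not stated.

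Comparing LPS-treated with untreated WT cells asks which carriers respond within 2 h of stimulation. Of the 22 metal carriers 11 rose, 3 fell and 8 were not called. When libraries were scaled to gene reads alone, 9 of them were called higher and 9 lower, 40.9% each, against 13.7% and 53.6% of all genes. With replicate number as a term in the fit (replicate block) the counts were 13 and 5. Of the 12 carriers of sugars and related solutes 1 rose and 11 fell (8.3% and 91.7%). Over all members 38 rose and 73 fell, with 9 rising and 13 falling by more than 2-fold on the log2(normalised CPM + 1) scale. Of the members 25.0% were thus called higher and 48.0% lower, against 26.5% and 32.4% of all genes tested, of which 58.9% were called in all. The median change was -0.18 in the members and -0.04 over all genes. With the replicate block 128 members were called in all, against 111 without it. Blocked shares of all genes are not given here for this count or for the metal carriers, so neither rise is particular to carriers on these values. With gene-read scaling, the median of all genes shifted to -0.30, and changes were thus relative to a lower centre. With that scaling 23 members were called higher and 100 lower, 15.1% and 65.8%, against 13.7% and 53.6% of all genes. With each of the 4 libraries left out in turn, 30 of the 38 and 60 of the 73 kept their call throughout. Of those named below, Slc12a7 lost it without WT LPS replicate 1 or WT UT replicate 2, Slc29a1 without WT LPS replicate 1 and Slc41a2 without WT UT replicate 1, and the scaffold gene Slc9a3r1 (-0.79) and Slc4a1ap (0.26) also lost it.

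**Figure D1:**
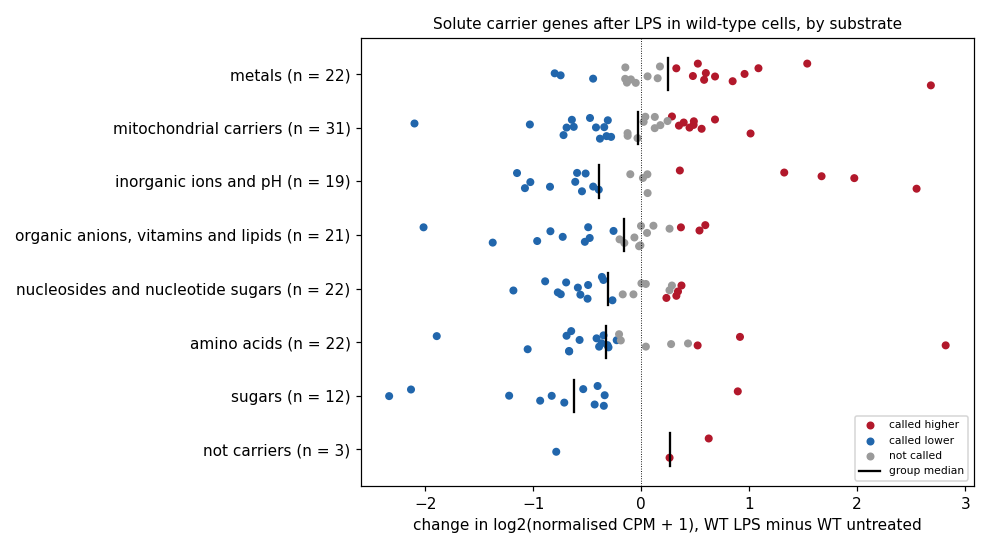
Change of each solute carrier gene in log2(normalised CPM + 1), WT LPS minus WT untreated, by substrate group; each point is a gene, red called higher, blue called lower, grey not called, and the black line is the group's median. Metal carriers have the highest median of the carrier groups (0.25) and sugar carriers the lowest (-0.62); scaled to gene reads alone the metal median is -0.03.

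Among the metal carriers, Slc31a2, a copper transporter of endosomes and lysosomes (chromosome 4, 62262562 to 62298411, plus strand, GRCm38), had 69.9 and 70.8 normalised CPM in WT LPS libraries, against 9.74 and 10.5 in WT UT libraries. The groups were far apart, with replicates within 1 normalised CPM of each other (log2 change 2.68 ± 0.08, adjusted p = 5.59e-09). Its neighbour on chromosome 4, Slc31a1, the copper importer of the plasma membrane, lies 62316 bp downstream. Slc31a1 had 162 and 160 normalised CPM in WT LPS libraries, against 107 and 105 in WT UT libraries (0.60 ± 0.06, adjusted p = 1.51e-05). Both copper carriers thus rose, the endosomal one more. Slc11a2, the iron importer DMT1, had 194 and 209 normalised CPM in WT LPS libraries, against 63.7 and 74.0 in WT UT libraries (1.54 ± 0.10, adjusted p = 8.33e-07). Slc11a1, the phagosomal metal exporter NRAMP1, had 155 and 154 normalised CPM in WT LPS libraries, against 87.3 and 71.7 in WT UT libraries (0.96 ± 0.09, adjusted p = 1.45e-05). The groups did not overlap for either gene, a condition for naming the largest changes, and both members of the SLC11 family rose.

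Zinc carriers moved in both directions. The importers Slc39a1 (413 and 426 normalised CPM in WT LPS, against 195 and 199 in WT UT; 1.09 ± 0.06, adjusted p = 4.62e-07) and Slc39a14, which also carries iron (139 and 157 in WT LPS, against 75.4 and 88.3 in WT UT; 0.85 ± 0.14, adjusted p = 0.000645), rose. The importers Slc39a3 (8.94 and 9.28 in WT LPS, against 17.4 and 15.9 in WT UT) and Slc39a10 (66.0 and 62.6 in WT LPS, against 108 and 109 in WT UT) fell, by 0.80 and 0.75 on the log2 scale. Slc39a13, Slc30a4 and Slc30a6 rose by 0.68, 0.52 and 0.48, and Slc30a5, a zinc carrier of the secretory pathway, fell by 0.45. Slc30a1, the zinc exporter of the plasma membrane, had 28.5 and 24.3 normalised CPM in WT LPS libraries, against 27.6 and 30.4 in WT UT libraries, and was not called (-0.13 ± 0.09, adjusted p = 0.23). The magnesium carriers Slc41a1 and Slc41a2 rose by 0.58 and 0.33, and the heme transporter Slc48a1 was not called (-0.10). Scaled to gene reads alone, 9 metal carriers were called higher and 9 lower, 40.9% each, against 13.7% and 53.6% of all genes. The balance of the group is thus a balance relative to the other genes. Of 19 further genes of iron, zinc and copper handling that were tested, 7 rose and 4 fell (4 and 6 scaled to gene reads alone). The 7 and 4 were 36.8% and 21.1%, against 26.5% and 32.4% of all genes. Slc40a1, the iron exporter ferroportin, lay under the level of the rule. It had 0.458 and 0.271 normalised CPM in WT LPS libraries, against 2.05 and 1.34 in WT UT libraries.

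Of the 19 carriers of inorganic ions and protons 5 rose and 10 fell, 26.3% and 52.6%, against 26.5% and 32.4% of all genes. Slc4a7, an electroneutral sodium bicarbonate cotransporter (chromosome 14, 14702279 to 14799940, plus strand), had 631 and 655 normalised CPM in WT LPS libraries, against 105 and 113 in WT UT libraries (2.55 ± 0.09, adjusted p = 1.03e-08). Slc20a1, a sodium phosphate cotransporter, had 441 and 446 normalised CPM in WT LPS libraries, against 103 and 122 in WT UT libraries (1.97 ± 0.13, adjusted p = 9.56e-07). Slc12a4, the potassium chloride cotransporter KCC1, had 208 and 245 normalised CPM in WT LPS libraries, against 63.7 and 77.7 in WT UT libraries (1.67 ± 0.19, adjusted p = 4.02e-05). The LPS libraries were above the untreated ones for all 3 genes, a condition for naming them. The related Slc12a7 and Slc12a9 fell by 0.44 and 1.08, so family members did not move as 1 block. Slc8b1, the mitochondrial sodium calcium exchanger, had 20.6 and 17.6 normalised CPM in WT LPS libraries, against 42.7 and 44.3 in WT UT libraries (-1.15 ± 0.08, adjusted p = 1.33e-06). Slc9a4 had 88.0 and 69.5 normalised CPM in WT LPS libraries, against 30.6 and 30.7 in WT UT libraries (1.32 ± 0.13, adjusted p = 1.54e-05); the cytokine receptor genes Il18rap and Il1rl1 on the same stretch of chromosome 1 also rose, by 1.42 and 1.39, and their part in the counts of Slc9a4 was not tested.

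**Figure D2:**
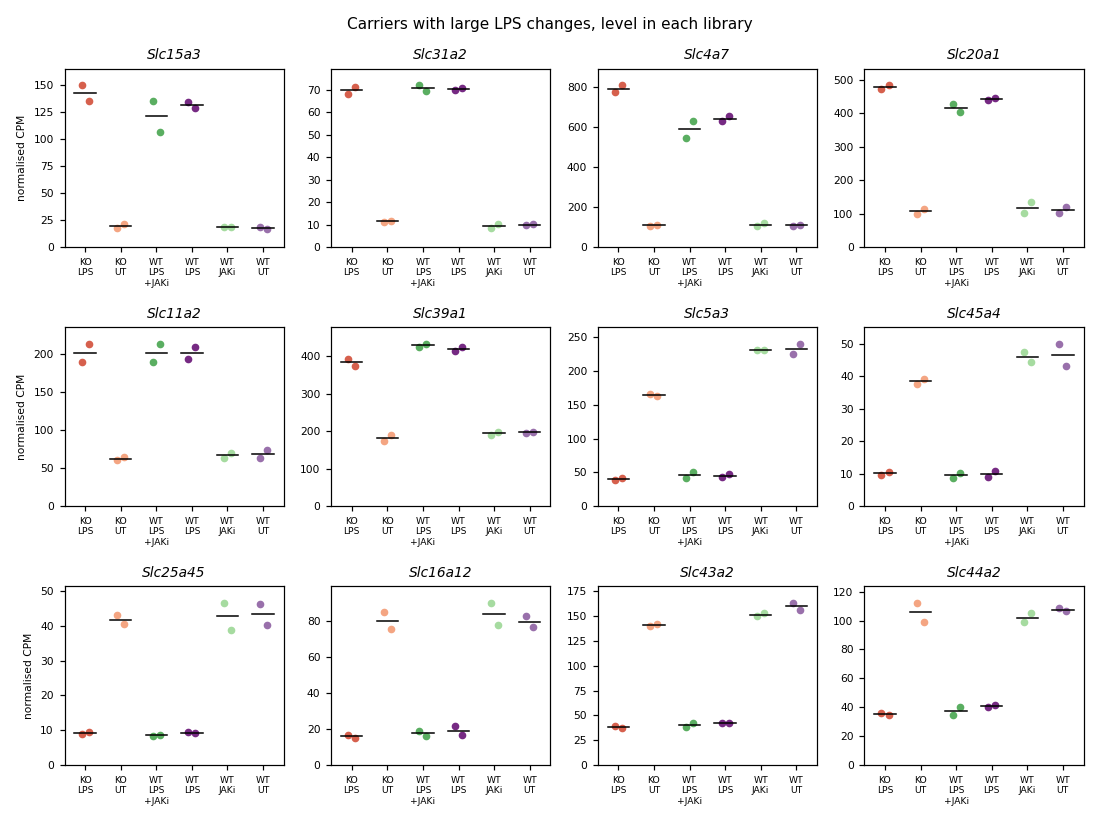
Level of 12 carriers in each library, in normalised CPM on a linear axis that starts at 0, for the 6 groups (2 points each; line, mean). Slc31a2 lies near 70 normalised CPM in all LPS libraries and near 10 in all others, and Slc5a3 lies under 51 in all LPS libraries.

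The sugar group was assigned by family and holds carriers of related solutes. Slc5a3, the sodium myo-inositol cotransporter (chromosome 16, 92058322 to 92087473, plus strand), had 43.0 and 47.9 normalised CPM in WT LPS libraries, against 225 and 241 in WT UT libraries. This was the largest fall among the members (-2.33 ± 0.09, adjusted p = 2.94e-08). The extent of Slc5a3 lies within that of Mrps6, whose own change was -0.41. Slc45a4, of a family of proton-coupled sugar carriers, had 9.09 and 10.7 normalised CPM in WT LPS libraries, against 50.1 and 43.3 in WT UT libraries (-2.13 ± 0.11, adjusted p = 1.93e-07). All 4 members of the SLC37 family, known mainly as sugar phosphate exchangers of the endoplasmic reticulum, fell: Slc37a2 by 1.22, Slc37a4 by 0.94, Slc37a3 by 0.54 and Slc37a1 by 0.43. Slc37a2 had 46.1 and 43.2 normalised CPM in WT LPS libraries, against 106 and 105 in WT UT libraries. The neuronal-type glucose carrier Slc2a3 fell by 0.40, the urate carrier Slc2a9 by 0.35 and the vitamin carrier Slc5a6 by 0.71. The exception was Slc2a6, a lysosomal hexose carrier, which had 265 and 261 normalised CPM in WT LPS libraries, against 159 and 125 in WT UT libraries (0.89 ± 0.15, adjusted p = 0.000707). Scaled to gene reads alone the count was the same, 1 higher and 11 lower, where 13.7% and 53.6% of all genes were called.

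Among 22 carriers of amino acids, peptides and related solutes 3 rose and 14 fell, against 5 and 16 with the replicate block. Without the block the shares were 13.6% and 63.6%, against 26.5% and 32.4% of all genes, and blocked shares of all genes are not given here. Slc15a3, a lysosomal carrier of histidine and of small peptides (chromosome 19, 10839727 to 10859362, plus strand), had 134 and 128 normalised CPM in WT LPS libraries, against 18.6 and 17.0 in WT UT libraries. It rose most of all members (2.82 ± 0.12, adjusted p = 5.61e-08). Of its exon bases 28.1% overlap Tmem132a on the opposite strand, which itself had 24.8 and 23.7 normalised CPM in WT LPS libraries, against 7.11 and 6.76 in WT UT libraries; reads of the 2 genes cannot be told apart in the overlap without strand. The related Slc15a4, by contrast, had 36.1 and 39.3 normalised CPM in WT LPS libraries, against 61.6 and 59.2 in WT UT libraries (-0.67 ± 0.07, adjusted p = 2.67e-05). The pair of lysosomal peptide carriers thus moved in opposite directions. Slc7a7 and Slc7a8, light chains of heteromeric amino acid exchangers, rose by 0.91 and 0.52. Slc43a2, a carrier of large neutral amino acids, had 42.8 and 41.8 normalised CPM in WT LPS libraries, against 164 and 156 in WT UT libraries (-1.89 ± 0.07, adjusted p = 1.26e-08). The lysosomal carriers Slc36a1 (-1.05), Slc38a9 (-0.69) and Slc38a7 (-0.65) fell, and so did Slc38a2, a glutamine carrier of the plasma membrane, with 353 and 356 normalised CPM in WT LPS libraries, against 447 and 484 in WT UT libraries (-0.39 ± 0.07, adjusted p = 0.00077). The creatine carrier Slc6a8, at 22.7 and 25.1 normalised CPM in WT LPS libraries, against 18.2 and 20.9 in WT UT libraries, was not called (0.28 ± 0.17, adjusted p = 0.195; 0.00414 with the replicate block).

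The 31 SLC25 carriers divided into 9 that rose and 13 that fell, 29.0% and 41.9%, against 26.5% and 32.4% of all genes. Their median change was -0.03. Slc25a33, a carrier of pyrimidine nucleotides, had 29.3 and 29.5 normalised CPM in WT LPS libraries, against 13.6 and 14.5 in WT UT libraries (1.01 ± 0.07, adjusted p = 1.51e-06). Slc25a45 had 9.45 and 9.17 normalised CPM in WT LPS libraries, against 46.3 and 40.3 in WT UT libraries (-2.10 ± 0.10, adjusted p = 1.17e-07). The 2 mitochondrial iron importers moved apart: Slc25a37, mitoferrin 1, had 69.4 and 69.1 normalised CPM in WT LPS libraries, against 50.1 and 50.9 in WT UT libraries (0.45 ± 0.06, adjusted p = 0.000109), and Slc25a28, mitoferrin 2, averaged 12.5 ± 0.73 in WT LPS libraries, against 26.6 ± 1.02 in WT UT libraries (SD, n = 2 each; -1.03 ± 0.09, adjusted p = 5.92e-06). Slc25a51, the mitochondrial NAD carrier, fell by 0.72, and the dicarboxylate carrier Slc25a10 by 0.62. The abundant Slc25a5 and Slc25a3 rose by 0.39 and 0.28. Scaled to gene reads alone, 4 of the 31 were called higher and 19 lower, 12.9% and 61.3%, against 13.7% and 53.6% of all genes.

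Nucleoside and nucleotide sugar carriers comprised 4 of 22 that rose (2 without WT LPS replicate 1) and 12 that fell. All 3 equilibrative nucleoside carriers among them fell: Slc29a3, of lysosomes, had 11.0 and 11.5 normalised CPM in WT LPS libraries, against 28.3 and 25.3 in WT UT libraries (-1.18 ± 0.11, adjusted p = 8.13e-06), and Slc29a2 and Slc29a1 fell by 0.74 and 0.27. In the Golgi family SLC35 the carriers Slc35b4 (-0.89) and Slc35c1, the GDP-fucose carrier (-0.77), fell and the UDP-galactose carrier Slc35a2 rose by 0.37. Of these 22 carriers 18.2% rose and 54.5% fell, against 26.5% and 32.4% of all genes. Scaled to gene reads alone, 0 of the 22 were called higher and 15 (68.2%) lower, against 13.7% and 53.6% of all genes. Among 21 carriers of organic anions, vitamins and lipids 3 rose and 9 fell (14.3% and 42.9%), against 1 and 16 (4.8% and 76.2%) with that scaling. Without WT UT replicate 1 the number called higher was 1. Slc16a12, a carrier of creatine and monocarboxylates, had 21.8 and 16.6 normalised CPM in WT LPS libraries, against 82.8 and 77.0 in WT UT libraries (-2.02 ± 0.13, adjusted p = 1.14e-06). The choline transporter-like genes moved apart, with Slc44a1 at 0.54 and Slc44a2 at -1.37. Slc17a9, the vesicular nucleotide carrier, and Slc17a5, the lysosomal sialic acid carrier, fell by 0.96 and 0.84. The lactate carrier Slc16a1 had 441 and 405 normalised CPM in WT LPS libraries, against 405 and 408 in WT UT libraries, and was not called (0.05 ± 0.06, adjusted p = 0.476). Of 36 tested carriers whose symbols do not begin with Slc, 4 rose and 14 fell, 11.1% and 38.9%. The counts were 1 and 24 of 37 scaled to gene reads alone, and 9 and 17 with the replicate block. Of the 7 tested genes the rule left out 4 rose and 0 fell, 57.1% and 0.0%. The shares of all genes were 26.5% and 32.4%.

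In KO cells, 42 members rose and 69 fell after LPS, against a background of 59.9% of all genes called, 26.8% higher and 33.0% lower. With the replicate block 131 members were called in all, against 111 without it, and the blocked share of all genes is not given here. By gene-read scaling 13.8% of the members were called higher and 61.8% lower, against 13.9% and 52.7% of all genes. Scaled to gene reads alone the count was 21 higher and 94 lower, and with libraries left out in turn 28 and 56 kept their call throughout. The largest changes were Slc4a7, at 775 and 812 normalised CPM in KO LPS libraries, against 106 and 112 in KO UT libraries (2.85 ± 0.09, adjusted p = 5.68e-09), and Slc16a12, at 16.6 and 15.2 in KO LPS libraries, against 85.4 and 75.6 in KO UT libraries (-2.27 ± 0.13, adjusted p = 4.76e-07). By group, 12 of 22 metal carriers rose and 5 fell (54.5% and 22.7%), against 9 and 9 (40.9% each) scaled to gene reads alone. With each of the 4 libraries left out in turn, the calls of Slc39a11 and Slc48a1 (lower) and of Slc39a6 (higher) were lost each time. That of Slc41a2 (higher) was lost in 3 of the 4 cases. Of 12 sugar carriers 1 rose and 10 fell (8.3% and 83.3%). The same 102 members were called in the same direction in both genotypes, and 0 in opposite directions. These were 91.9% of the 111 called in KO cells and 91.9% of the 111 called in WT cells. The matching shares over all genes are not given here. Across the 152 members the changes in KO and WT cells correlated with Pearson's r = 0.98 and Spearman's rho = 0.96, against r = 0.97 over all 10876 genes, a value close to that of the members; the 2 comparisons share no library, and genes are not independent replicates. The changes differed by under 0.25 in 138 of the 152 members.

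**Figure D3:**
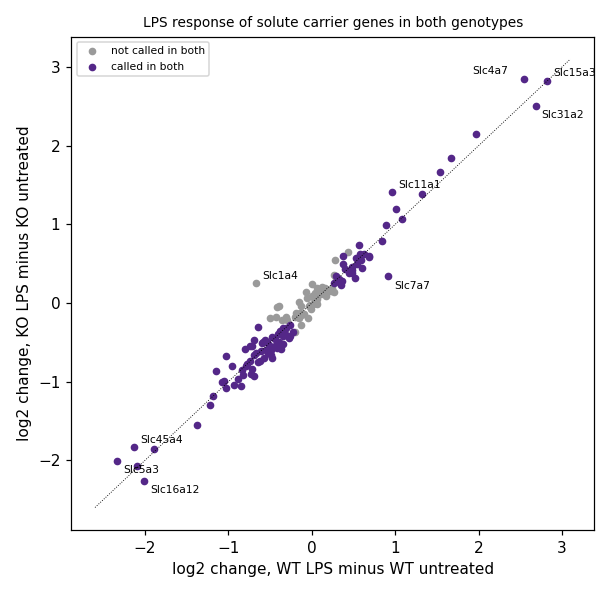
LPS response of the 152 solute carrier genes in KO cells (vertical, KO LPS minus KO untreated) against WT cells (horizontal, WT LPS minus WT untreated), both as differences in log2(normalised CPM + 1); purple points were called in both, grey points in 1 genotype or neither, and the line marks equal change. Most points lie on the line, and Slc1a4 lies farthest from it, at 0.25 in KO and -0.67 in WT cells.

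The test of the difference between the 2 responses called 1 member, Slc1a4, a carrier of alanine, serine and cysteine (chromosome 11, 20302180 to 20332713, minus strand), where 0.524% of all genes were called. It had 11.9 and 10.9 normalised CPM in KO LPS libraries and 9.35 and 9.51 in KO UT libraries, against 2.51 and 2.57 in WT LPS and 5.04 and 4.23 in WT UT libraries. After LPS its level was not called as changed in KO cells (0.25 ± 0.11, adjusted p = 0.0655; 0.0355 with the replicate block) and fell in WT cells (-0.67 ± 0.11, adjusted p = 0.000418), with a difference of 0.92 ± 0.15 (adjusted p = 0.0335). The call was lost without each of the 8 libraries in turn (adjusted p 0.068 to 0.164) and with edgeR (adjusted p = 0.0732), and kept with the replicate block (adjusted p = 0.00167). At an unadjusted p under 0.05 there were 11 members, 7.24% of 152, against 6.08% of all genes. The share was near that background. With the replicate block 5 members were called higher and 2 lower, 3.3% and 1.3%, against 1.5% and 2.2% of all genes. Besides Slc1a4 these were Slc7a7 (-0.58 ± 0.15, adjusted p = 0.234 without the block and 0.0234 with it), Slc11a1 (0.45 ± 0.13, 0.331 and 0.00771), Slc38a2 (0.35 ± 0.10, 0.293 and 0.0102), Slc4a7, Slc5a3 and Slc6a12, named after their values were seen.

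Comparing untreated KO with untreated WT cells asks which carriers differ with the genotype before stimulation. The number of KO clones is not given, so genotype and clone cannot be told apart. KO libraries also had 58.95 to 59.86% of alignments in genes, against 61.51 to 64.06% in WT libraries, and the part of this was not tested. Of the members 4 were higher and 16 lower in KO cells, where 9.12% of all genes were called, 4.38% higher and 4.74% lower. The sugar group had 5 of 12 members lower (Slc2a3, Slc2a6, Slc5a3, Slc37a2 and Slc37a3) and 0 higher, each of these calls being lost without at least 1 library, and 0 of 31 SLC25 carriers were called (1 higher and 3 lower with the replicate block). After LPS, 7 were higher and 19 lower in KO cells, where 14.2% of all genes were called, 6.42% higher and 7.79% lower. With the replicate block 12 members were higher and 33 lower in untreated cells, 7.9% and 21.7%, against 11.7% and 12.7% of all genes. With it, after LPS, 23 were higher and 38 lower, 15.1% and 25.0%, against 15.4% and 16.9%. The calls shared by the untreated and the LPS comparison numbered 16 members, 80.0% of 20 and 61.5% of 26. The matching shares over all genes are not given here. The differences in the 2 comparisons correlated with Pearson's r = 0.88 across the 152 members, against r = 0.80 over all 10876 genes. Counts fell with fewer libraries: in untreated cells they were 2 higher in each case, and 11 lower without KO UT replicate 1, 8 without KO UT replicate 2, 9 without WT UT replicate 1 and 9 without WT UT replicate 2. After LPS they were 4 higher and 13 lower without KO LPS replicate 1, 4 and 9 without KO LPS replicate 2, 5 and 10 without WT LPS replicate 1, and 4 and 11 without WT LPS replicate 2. Calls that were kept throughout numbered 2 higher and 7 lower in untreated cells, and 4 higher and 8 lower after LPS. Osteoclast markers moved with the genotype: their summed level was 0.827 to 1.02 normalised CPM in KO libraries, against 3.1 to 5.69 in WT libraries, 2 of 5 genes were over 1 CPM and Calcr was at 0, and their part in these results was not tested.

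A trio of members was lower in KO cells by more than 2-fold on the log2(normalised CPM + 1) scale, whether untreated or stimulated. In the other direction, Slc1a4 was higher by 0.89 untreated and by 1.81 after LPS. Slc6a8, the creatine carrier (chromosome X, 73673150 to 73682502, plus strand), had 3.13 and 4.41 normalised CPM in KO UT libraries, against 18.2 and 20.9 in WT UT libraries (-2.12 ± 0.17, adjusted p = 6.63e-05), and 5.05 and 6.80 in KO LPS libraries, against 22.7 and 25.1 in WT LPS libraries (-1.86 ± 0.17, adjusted p = 0.000114). Slc24a5, a potassium-dependent sodium calcium exchanger of melanosomes (chromosome 2, 125068124 to 125088677, plus strand), had 10.4 and 9.70 normalised CPM in KO UT libraries, against 30.6 and 30.3 in WT UT libraries (-1.51 ± 0.08, adjusted p = 3.64e-06), and an average of 12.4 ± 0.65 in KO LPS libraries, against 39.3 ± 0.94 in WT LPS libraries (SD, n = 2 each; -1.58 ± 0.08, adjusted p = 2.61e-06). Of its exon bases 39.5% overlap Myef2 on the opposite strand; Myef2 itself averaged 62.2 normalised CPM in KO UT and 63.0 in WT UT libraries and was not called (-0.02). Slc8a1, the sodium calcium exchanger NCX1 of the plasma membrane (chromosome 17, 81373105 to 81738377, minus strand), had 13.2 and 13.0 normalised CPM in KO UT libraries, against 40.1 and 33.5 in WT UT libraries (-1.41 ± 0.12, adjusted p = 9.79e-05), and 8.27 and 8.39 in KO LPS libraries, against 26.7 and 23.0 in WT LPS libraries (-1.47 ± 0.12, adjusted p = 5.98e-05). KO and WT libraries did not overlap for these 3 lower genes, which was a condition for naming them. Their calls held without each library in turn.

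**Figure D4:**
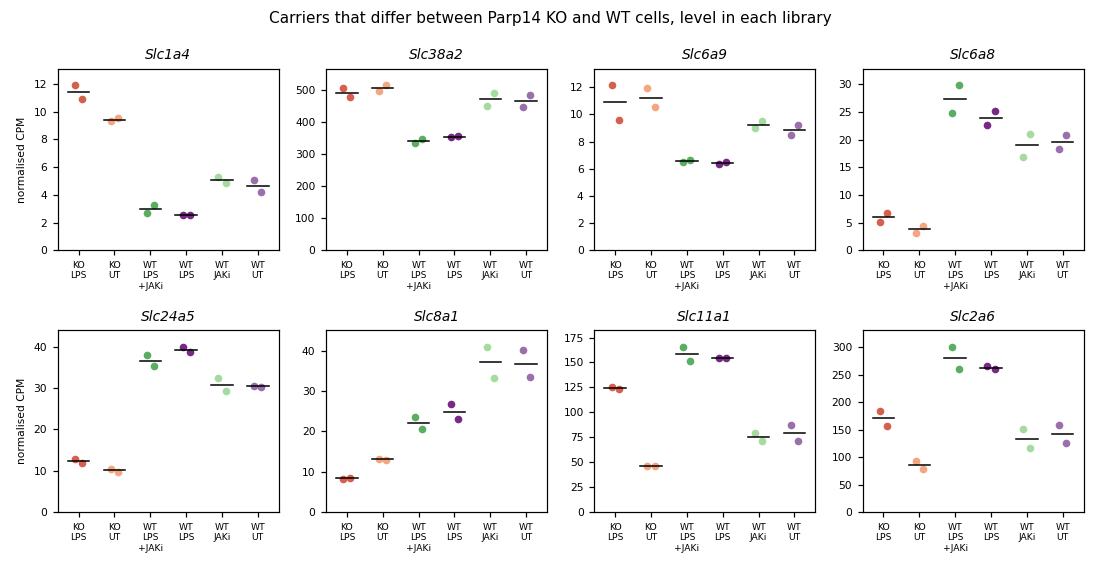
Level of 8 carriers in each library, in normalised CPM on a linear axis that starts at 0, for the 6 groups (2 points each; line, mean). Slc6a8, Slc24a5 and Slc8a1 are lower in all 4 KO libraries than in all 8 WT libraries, and Slc1a4 is higher in all 4.

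Among smaller differences, Slc11a1 had 46.3 and 46.4 normalised CPM in KO UT libraries, against 87.3 and 71.7 in WT UT libraries (-0.76 ± 0.09, adjusted p = 0.000765); after LPS it had 126 and 123 in KO libraries, against 155 and 154 in WT libraries, and was not called (-0.31 ± 0.09, adjusted p = 0.0529; 0.00122 with the replicate block). Slc2a6 had 92.1 and 78.8 normalised CPM in KO UT libraries, against 159 and 125 in WT UT libraries (-0.72 ± 0.15, adjusted p = 0.0171), a call lost without KO UT replicate 2 (adjusted p = 0.123) or WT UT replicate 1 (adjusted p = 0.148); after LPS it had 185 and 156 in KO libraries, against 265 and 261 in WT libraries (-0.63 ± 0.15, adjusted p = 0.0236), a call lost without KO LPS replicate 2 or either WT LPS library. Slc6a12 had 173 and 173 normalised CPM in KO LPS libraries, against 277 and 283 in WT LPS libraries (-0.69 ± 0.05, adjusted p = 2.48e-05), and 259 and 260 in KO UT libraries, against 358 and 364 in WT UT libraries (-0.48 ± 0.05, adjusted p = 0.000363). Its neighbour Slc6a13, 5343 bp away, differed in the other direction in untreated cells (0.25 ± 0.07, adjusted p = 0.0468), a call lost with each of the 4 libraries left out in turn. Slc30a4, a zinc carrier of vesicles, was higher in KO cells by 0.61 untreated and by 0.66 after LPS. Slc44a1, the choline carrier, was lower by 0.41 and by 0.46, and Slc37a2 by 0.38, a call lost without KO UT replicate 2 or either WT UT library, and by 0.45.

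After LPS the amino acid carriers differed in both directions, 3 higher and 4 lower of 22, against 5 and 6 with the replicate block. Without the block the shares were 13.6% and 18.2%, against 6.42% and 7.79% of all genes, and the blocked shares of all genes are given above. Slc1a4 was higher by 1.81 ± 0.11 (adjusted p = 6.63e-06). Slc38a2 had 506 and 478 normalised CPM in KO LPS libraries, against 353 and 356 in WT LPS libraries (0.47 ± 0.07, adjusted p = 0.00151), and 498 and 516 in KO UT libraries, against 447 and 484 in WT UT libraries (0.12 ± 0.07, adjusted p = 0.385). The glycine carrier Slc6a9 had 12.2 and 9.61 normalised CPM in KO LPS libraries, against 6.32 and 6.47 in WT LPS libraries (0.68 ± 0.11, adjusted p = 0.00273). Slc7a7 had 11.6 and 10.7 normalised CPM in KO LPS libraries, against 14.0 and 16.7 in WT LPS libraries (-0.43 ± 0.11, adjusted p = 0.0239), a call kept only without WT LPS replicate 1 among the 4 libraries. Slc4a7, Slc25a33 and Slc31a1 were called at 0.30, 0.25 and -0.25, and these 3 calls were lost with each of the 4 libraries left out in turn.

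**Figure D5:**
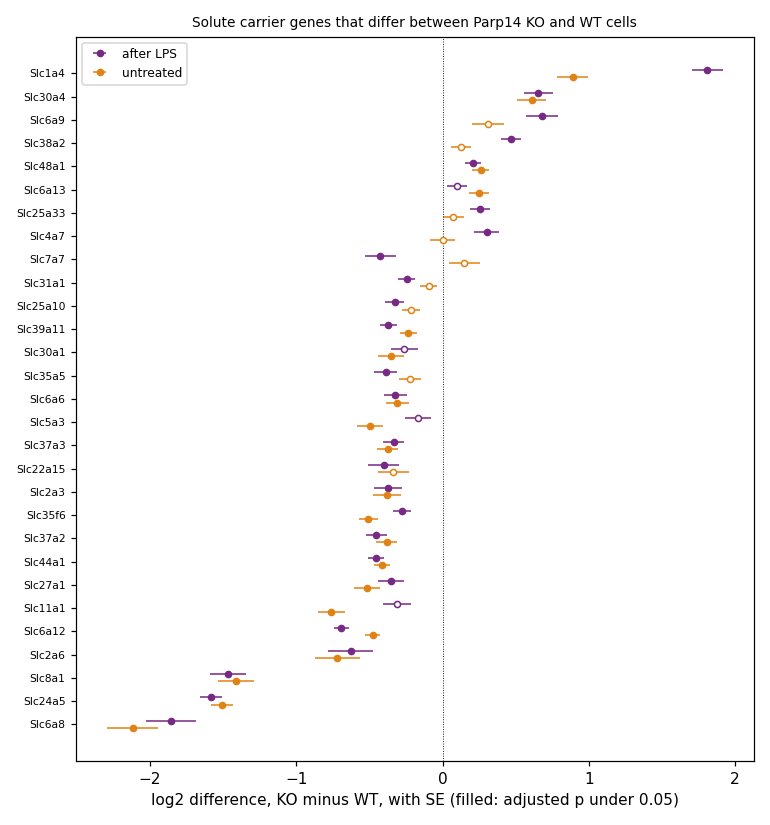
Difference between KO and WT cells in log2(normalised CPM + 1), with SE, for 29 of the solute carrier genes called in untreated cells (orange) or after LPS (purple); filled points have an adjusted p under 0.05. Slc1a4 is farthest to the right (1.81 after LPS) and Slc6a8 farthest to the left (-2.12 untreated).

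In LPS-treated WT cells, the Jak inhibitor changed 0 members at an adjusted p under 0.05 (limma), where 1.15% of all genes were called, 0.0552% higher and 1.09% lower. Unadjusted p-values under 0.05 numbered 7 among the members, 4.61%, against 6.81% of all genes. On recovered reads edgeR and DESeq2 each called 0 members, against 1.12% and 1.62% of all genes. With the replicate block 2 members were called higher and 2 lower, 1.3% each, against 1.0% and 3.0% of all genes. Higher were Slc6a13 (0.25, adjusted p = 0.0359) and Slc35e4 (adjusted p = 0.0237). Slc25a22 was 1 of the 2 lower (adjusted p = 0.00207). Differences ranged from -0.30 for the glutamate carrier Slc25a22, at 26.2 and 31.6 normalised CPM in WT LPS + JAKi libraries, against 31.6 and 40.3 in WT LPS libraries, to 0.29 for Slc35e4, at 76.5 and 61.5 in WT LPS + JAKi libraries, against 58.5 and 53.6 in WT LPS libraries. The 95% intervals of all members lay between -0.69 and 0.63, and those of 145 lay within 0.5 of 0, so a change of 2-fold lay outside every interval. The interferon-responsive Parp14 averaged 134.7 ± 21.6 normalised CPM in WT LPS + JAKi libraries, against 405.9 ± 84.0 in WT LPS libraries (-1.58 ± 0.21, adjusted p = 0.00415). Slc15a3 had 135 and 107 normalised CPM in WT LPS + JAKi libraries, against 134 and 128 in WT LPS libraries (-0.13 ± 0.12, adjusted p = 0.967), and Slc11a1 had 166 and 152 in WT LPS + JAKi libraries, against 155 and 154 in WT LPS libraries (0.04 ± 0.09, adjusted p = 0.996).

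With the inhibitor present, LPS-treated WT cells differed from WT cells with the inhibitor alone in 107 members, 38 higher and 69 lower, where 59.0% of all genes were called, 26.5% higher and 32.4% lower. Scaled to gene reads alone the members' count was 26 higher and 93 lower, 17.1% and 61.2%, against 13.5% and 50.8% of all genes. With the replicate block 130 members were called in all, against 107 without it, and the blocked share of all genes is not given here. The direction was shared with the response without the inhibitor in 101 members, 94.4% of the 107 called with it and 91.0% of the 111 called without it. The matching shares over all genes are not given here. Across the 152 members the changes correlated with Pearson's r = 0.99 and Spearman's rho = 0.97, against r = 0.97 over all genes, and the 2 comparisons share no library. The largest difference between the 2 changes was 0.35, for Slc29a2. Slc31a2 had 72.2 and 69.6 normalised CPM in WT LPS + JAKi libraries, against 8.67 and 10.2 in WT JAKi libraries (2.79 ± 0.08, adjusted p = 5.2e-09), and Slc5a3 had 42.3 and 50.5 in WT LPS + JAKi libraries, against 231 and 231 in WT JAKi libraries (-2.30 ± 0.09, adjusted p = 3.29e-08). Given alone, the inhibitor changed 0 members relative to WT UT cells, where 0.0% of all genes were called (limma), with 1 member at an unadjusted p under 0.05 (0.658%, against 0.809% of all genes) and 0 by edgeR and DESeq2. The members' differences ranged from -0.17 for Slc35a2 to 0.16 for Slc25a46, and the 95% intervals lay between -0.6 and 0.59.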

How the data were processed

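RNA sequencing libraries of total RNA from RAW 264.7 cells (6 groups of 2) were analysed from the CPM table the authors deposited. Reads were handled with TopHat2 2.1.0, HTSeq and edgeR on mm10/GRCm38, per the submitters' processing notes; the annotation and any strand setting were not given there. The deposited CPM were scaled per library to the sum of its gene and 5 HTSeq summary counts. In genes fell 58.95 to 59.86% of alignments in KO libraries and 61.51 to 64.06% in WT libraries. Alignments that were not unique made up 33.23 to 34.92% in KO and 28.59 to 32.1% in WT libraries. The genotypes thus did not overlap in either share, and the part of this in KO minus WT differences was not tested. Multiplying out gave whole reads within 0.02 reads for 99.98 to 100% of values above 0. The table also held 4 per-sample columns not used here.

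CPM were rescaled to gene reads and divided by median-of-ratios factors (0.8984 to 1.112, over 8473 genes of at least 5 CPM). Genes with at least 1 CPM in 2 libraries (10876) entered a limma 3.58.1 trend fit (R 4.3.3) on log2(normalised CPM + 1), with 6 group means over 12 libraries, residual degrees of freedom 6 and prior degrees of freedom 3.62. Alternatives were a pseudocount of 0.25, no filter, gene-read scaling, a replicate block, each library left out, and edgeR 4.0.16 (quasi-likelihood) and DESeq2 1.42.0 on recovered read counts. The labels give replicate numbers but not what they mark. Replicate 1 minus 2 differences correlated across genes in all 15 pairs of groups (0.472 to 0.743), so same-numbered libraries deviated together. Blocked values stand beside main results they change, though not beside every group count or named gene. Fits were tested on simulated counts that varied independently between libraries, so that test does not bear on same-numbered libraries deviating together. Positions come from GENCODE M21. Named were the 10 largest non-overlapping called changes in each direction after LPS in WT cells, 6 in other comparisons, the 2 to 4 largest in each substrate group, and genes followed throughout; further members are named after their values were seen. The members, groups and lists were chosen with earlier results of these data known. Some members enter the counts but are not reported here by name.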

Additional observations from a re-analysis of the deposited data

Results flagged for a closer look

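The response of Slc1a4 to LPS differed between the genotypes in the test of the difference itself: 0.25 in KO cells and -0.67 in WT cells, a difference of 0.92 on the log2 scale, in the direction of a higher level in KO cells. It was the 1 member called in that test without the replicate block, at levels of 2.51 to 11.9 normalised CPM. The call of Slc1a4 was lost with gene-read scaling, edgeR, a pseudocount of 0.25 and no filter, and without each of the 8 libraries in turn. It was kept with DESeq2 and with the replicate block. What accounts for the difference was not tested.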

How the results depend on the processing

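Many named genes were chosen for large, called changes without overlap, so the counts that follow do not stand for the calls of all members. For 101 called values of named genes, 594 recomputations under other settings kept direction and call and 11 lost the call. The 1 that reversed was Slc4a1ap after LPS in WT cells, at -0.018 with gene-read scaling. With libraries left out in turn, 359 kept the call and 49 lost it. On recovered read counts edgeR called 6463 genes, 114 of them members, after LPS in WT cells, against 6402 and 111 with limma. With gene-read scaling, whose centre lies lower after LPS, members called higher after LPS numbered 21 in KO and 23 in WT cells. These were 13.8% and 15.1% of the members, against 13.9% and 13.7% of all genes. The call of Slc1a4 in the test of the difference of responses was lost (0 members called higher) with gene-read scaling, edgeR, a pseudocount of 0.25 and no filter (adjusted p 0.0502, 0.0732, 0.0623 and 0.076) and kept with DESeq2 (0.000776) and with the replicate block (0.00167).

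Blocking on the replicate number, the fit called 12 members higher and 33 lower in untreated KO against untreated WT cells (7.9% and 21.7%, against 11.7% and 12.7% of all genes), 23 and 38 after LPS (15.1% and 25.0%, against 15.4% and 16.9%), 5 and 2 for the difference of responses (3.3% and 1.3%, against 1.5% and 2.2%), and 2 and 2 for the inhibitor in LPS-treated cells (1.3% each, against 1.0% and 3.0%). After LPS the blocked fit called 128 members in WT cells, 131 in KO cells and 130 with the inhibitor. Without the block these totals were 111, 111 and 107, and the blocked shares of all genes are not given here. Of the members called without the block, 0 lost the call with it in any of the 8 comparisons.

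Leaving out a library gave 32 to 36 members higher and 59 to 66 lower after LPS in KO cells, 32 to 39 and 64 to 68 in WT cells, and 33 to 38 and 62 to 69 with the inhibitor. KO against WT cells gave 2 to 2 higher and 8 to 11 lower untreated, and 4 to 5 higher and 9 to 13 lower after LPS; the difference of responses gave 0, and the inhibitor comparisons 0. With 2 libraries per group, the number of libraries limits what can be called, and a library left alone in its group is assumed to vary like the other groups.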
